A study of Mus musculus with 4 samples.

Results

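Cps1 and Uox, the genes of carbamoyl-phosphate synthetase 1 and of urate oxidase, were followed on arrays of E14.5 mouse fetal liver RNA from WT and Stk40 KO embryos. They were chosen by their measured intensities on these arrays, in that every probe set was taken that carries the single symbol Cps1 or Uox in the list of 2-fold changes deposited by the authors (hereafter the authors' table). This gave 1 probe set for each gene, or 2 of the 45101 on the array, and 2 of the 1345 genes that carry a symbol of their own in that table. The embryos were of the C57BL/6J strain and came from matings of Stk40 heterozygotes, and the Stk40 KO embryos carried a conventional deletion present in all tissues. Each genotype had 2 arrays, each hybridized with RNA of 6 livers pooled by genotype, so the spread between arrays is one between pools and not between embryos. The paper's methods speak of total fetal liver RNA, and the sample labels of fetal liver cells. Fetal liver at this stage holds blood-forming cells beside hepatocytes.

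Cps1 makes carbamoyl phosphate from ammonia and bicarbonate in mitochondria, the first and rate-limiting step of the urea cycle, through which hepatocytes dispose of nitrogen. Uox resides in peroxisomes and oxidizes urate, the end point of purine breakdown in humans, toward allantoin. Both are enzymes of differentiated hepatocytes, and Cps1 is also made by the epithelium of the small intestine.

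The values are linear intensities in arbitrary units, and were read after the arrays had been given equal 75th percentiles, taken over positive values. An intensity of 144 was taken as the noise level (143 on the intensities as deposited). In absolute size, 95% of the negative values stay within it. Between 24.1% and 28.5% of the probe sets on an array exceeded it. The WT arrays were dimmer, with 75th percentiles of 206 and 247 against 267 and 263 for Stk40 KO, and the tested probe sets were brighter in Stk40 KO by a median of 0.18 on the log2 scale as deposited and by -0.04 at equal 75th percentiles. Stk40 has 1 named probe set, which read 71.6 and 51.9 in WT and -91.1 and -103 in Stk40 KO. Being under the noise level throughout, it allows no fold, and where that probe set lies relative to the deletion was not examined here.

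Cps1 stood under the noise level in WT livers and far above it in Stk40 KO livers. In WT its probe set had intensities of 123 and 108, and in Stk40 KO of 1112 and 1536. The genotypes did not overlap, and the lower Stk40 KO array was 7.75 times the noise level. The mean was 115 ± 10.8 (SD, n = 2) in WT and 1324 ± 300 (SD, n = 2) in Stk40 KO, which is at least 9.22-fold higher when the WT arrays are set at the noise level. As deposited, the same probe set had 103 and 108 in WT against 1208 and 1646 in Stk40 KO, at least 10.01-fold higher. With values under the noise level set to that level, no probe set of the 12319 above it on at least 2 arrays had a larger log2 difference. This ranks bounds and not true rises, because every gene dim in WT is held at the same level. In RNA of mixed cell types, more cells of a type and more RNA per cell cannot be told apart.

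Uox was likewise under the noise level on each WT array and above it on each Stk40 KO array, with a smaller difference. Its probe set read 111 and 102 in WT and 314 and 396 in Stk40 KO. The genotypes did not overlap, and the lower Stk40 KO array was 2.19 times the noise level. The mean was 107 ± 6.14 (SD, n = 2) in WT and 355 ± 57.8 (SD, n = 2) in Stk40 KO, at least 2.47-fold higher against the noise level. As deposited, Uox had 93.0 and 103 in WT against 341 and 424 in Stk40 KO, at least 2.69-fold higher. By the same ranking of bounds, 12 of the 12319 probe sets had a larger log2 difference at equal 75th percentiles, and 16 of 12600 as deposited.

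Since both genes were taken from a table of 2-fold changes on these same 4 arrays, their genotype differences are given as a description and with no test. A probe set of either gene without such a change would have no name here. Arrays that do not overlap, with Stk40 KO higher, were found for 16.0% of all tested probe sets (32.4% with Stk40 KO lower), and limma at an adjusted p under 0.05 called 1.21% of them higher and 0.674% lower in Stk40 KO (2.25% and 0.0873% as deposited).

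**Figure D1:**
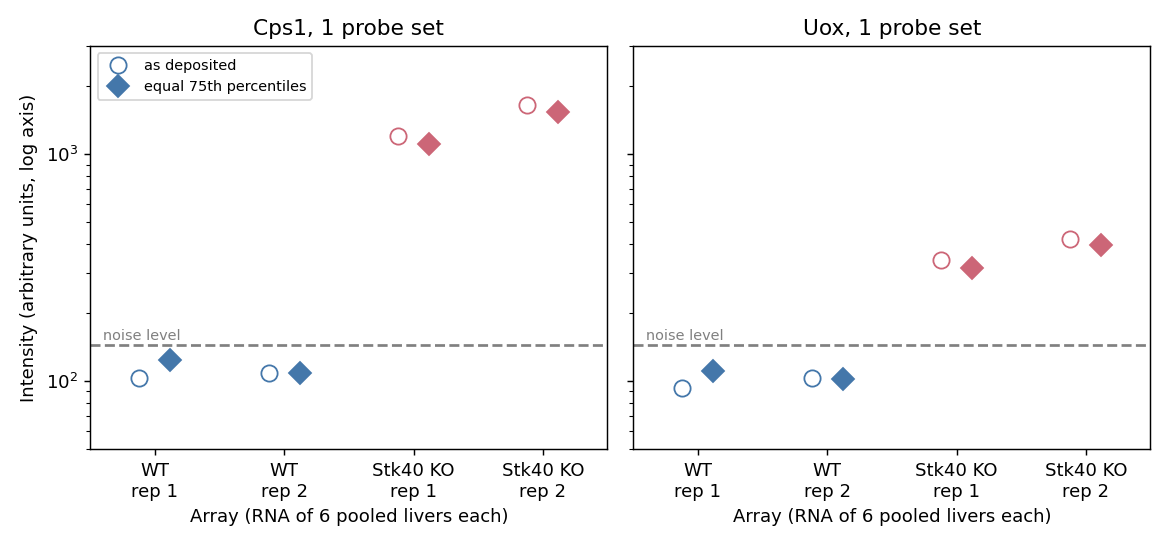
Intensity (arbitrary units, log axis) of the Cps1 and Uox probe sets on each of the 4 arrays, as deposited (open circles) and at equal 75th percentiles (filled diamonds), with the noise level as a dashed line. On the WT arrays each gene lies under that line in either scaling, and on the Stk40 KO arrays Cps1 reaches 1112 and 1536 and Uox 314 and 396 at equal 75th percentiles.

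The choice of scaling moved neither gene beyond the spread of its own arrays. Under quantile normalization Cps1 was at least 9.40-fold and Uox at least 2.49-fold higher. With the array's control probe sets at equal means the bounds were 9.25 and 2.49. The 37 controls above the noise level on every array were used. They were not sorted by kind, so they need not all stand for transcripts added to the samples. Leaving out either WT array gave 9.19 for Cps1 and 2.47 for Uox, and could change little, since both WT arrays are held at the noise level. The Stk40 KO arrays counted for more. Without replicate 2 the bounds fell to 7.98 and 2.26, and without replicate 1 they were 10.4 and 2.69. The order of the WT arrays is not settled by these data, because for each gene replicate 1 was the higher at equal 75th percentiles and replicate 2 as deposited, all under the noise level.

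**Figure D2:**
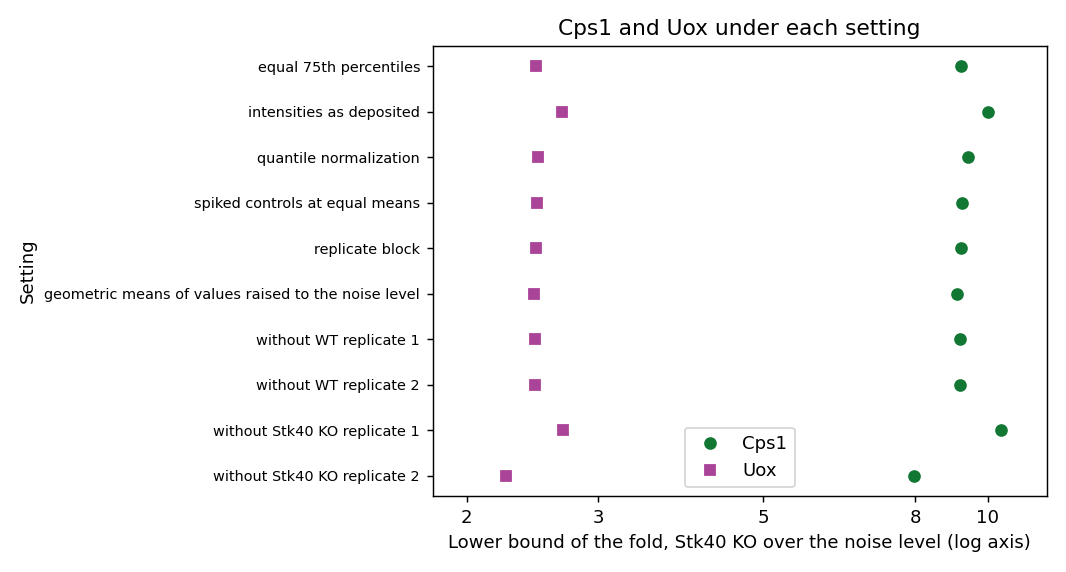
Lower bound of the fold of Stk40 KO against the noise level (log axis) for Cps1 (circles) and Uox (squares) under 10 settings of scaling, averaging and left-out arrays. Cps1 stays between 7.98 and 10.4 and Uox between 2.26 and 2.69, with the ends of either range set by leaving out a Stk40 KO array. The rule of the methods is not shown, as it divides by measured WT means and gives no bound (13.5 for Cps1 and 3.91 for Uox).

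On the Stk40 KO arrays the 2 genes leaned the same way. Replicate 2 was 1.38 times replicate 1 for Cps1 and 1.26 times for Uox, against a median of 1.04 over the tested probe sets. On the log2 scale this difference, 0.47 for Cps1 and 0.33 for Uox, was larger than that of 99.4% and 97.3% of the tested probe sets. Of all tested probe sets, 67.4% were brighter on replicate 2. Of the 149 probe sets that limma called higher in Stk40 KO, 107 (71.8%) were brighter on replicate 2, with a median ratio of 1.07. The 45 of these 149 with a gene symbol, Cps1 and Uox among them, had a median ratio of 1.23, and 38 (84.4%) were brighter on replicate 2.

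Markers of neutrophils were likewise brighter on replicate 2. Of the 8 listed, 4 are named in the table (Ngp, Camp, Ltf and Lcn2), and their summed intensity was 2046 and 1754 in WT against 3810 and 5433 in Stk40 KO. Replicate 2 was 1.51 times replicate 1 for Ngp and 1.41 times for Camp, which encode granule peptides. It was 1.61 times for Ltf, the iron-binding lactoferrin, and 1.25 times for Lcn2, lipocalin 2, which binds iron-carrying siderophores. Since all 4 had been named for a 2-fold change, a sum higher in Stk40 KO follows from how they were named. Between the Stk40 KO arrays the sum goes the same way as Cps1 and Uox, but so do genes outside the neutrophil list. Replicate 2 was 1.44 times replicate 1 for Igfbp1, which the liver secretes. For Cp, ceruloplasmin, it was 1.25 times by the probe set nearest to Cps1 and 1.51 times by the one nearest to Uox. Among the tested hepatocyte genes and nearest genes described below, Cyp3a11 (0.907), Mat1a (0.933) and C730007P19Rik (0.840) went the other way. The part of neutrophils in either gene's values was not tested.

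**Figure D3:**
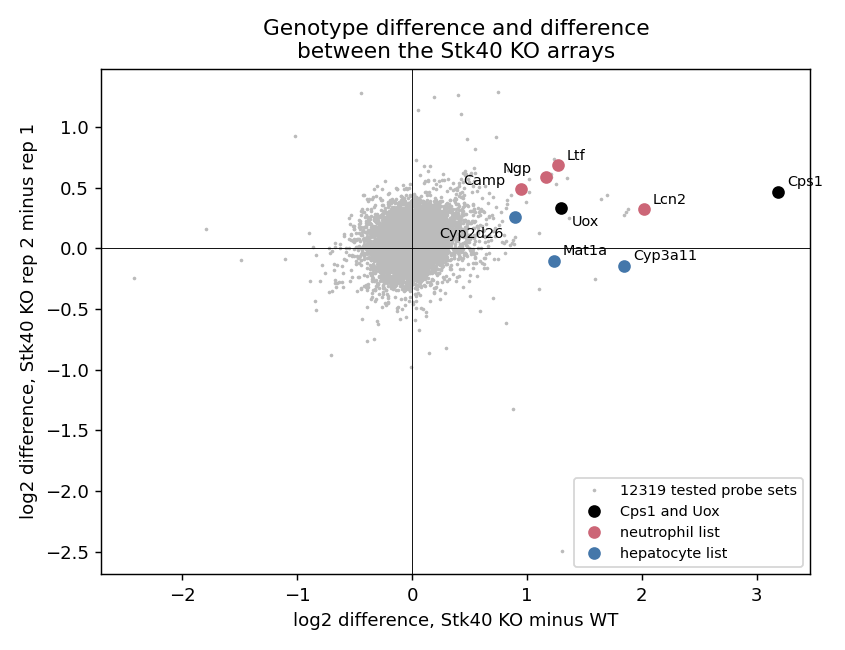
For the 12319 tested probe sets (grey), the log2 difference of Stk40 KO minus WT on the x axis and of Stk40 KO replicate 2 minus replicate 1 on the y axis, at equal 75th percentiles with lower values set to the noise level. Cps1 (3.19 and 0.47) and Uox (1.30 and 0.33) are black, the neutrophil genes red, and the hepatocyte genes Cyp3a11, Mat1a and Cyp2d26 blue.

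Among the other genes of nitrogen and purine handling, few could be read at all. Of 56 listed genes of the urea cycle, ammonia and arginine handling, urate formation and breakdown, urate transport, purine synthesis and cytosolic carbamoyl phosphate, the authors' table names 4, all of them with the higher mean in Stk40 KO, and none reached the noise level on 2 arrays, so 0 were tested. Of all probe sets on the array, 2.33% stand in that table as higher in Stk40 KO and 0.918% as lower. None of the other 7 genes listed for the urea cycle is named, Otc, Ass1, Asl and Arg1 included, so Cps1 is the single enzyme of the cycle with a value here. Nor is any of the 5 urate transporters, the 12 genes of purine synthesis, or Cad, which holds the cytosolic carbamoyl-phosphate synthetase of pyrimidine synthesis. A gene without a name here may have changed by less than 2-fold or not at all. It may also have been dropped by the authors' filter for inconsistent values, or share a probe set with other symbols. Its level was not analysed.

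Of 15 other genes listed for urate formation and breakdown, 3 are named. Xdh, the xanthine dehydrogenase that forms the urate on which Uox acts, had 11.1 and 7.50 in WT and 17.7 and 25.7 in Stk40 KO. Gda, the guanine deaminase that feeds xanthine to it, was read by 2 probe sets. The brighter had 81.9 and 96.0 in WT against 125 and 185 in Stk40 KO. The dimmer had 67.2 and 75.4 in WT against 106 and 153 in Stk40 KO. For each of the 2 probe sets only Stk40 KO replicate 2 exceeded the noise level. Aox3, an aldehyde oxidase related to xanthine dehydrogenase, had 2.82 and 6.69 against 9.21 and 10.5. The arrays of Xdh, Gda and Aox3 did not overlap between genotypes, which says little, since all were named for a 2-fold change. Apart from the 2 Gda values all lie under the noise level, and no fold is given for these genes.

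In the list of ammonia, glutamine and arginine handling, 1 of 14 genes is named. Slc7a2, a carrier of cationic amino acids such as arginine, had 36.8 and 37.3 in WT against 59.0 and 78.6 in Stk40 KO by its brighter probe set. Its other probe set had 3.91 and 3.98 against 9.79 and 6.36. Each of these values lies under the noise level. Of 10 genes of peroxisomes, where Uox resides, 0 are named.

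**Figure D4:**
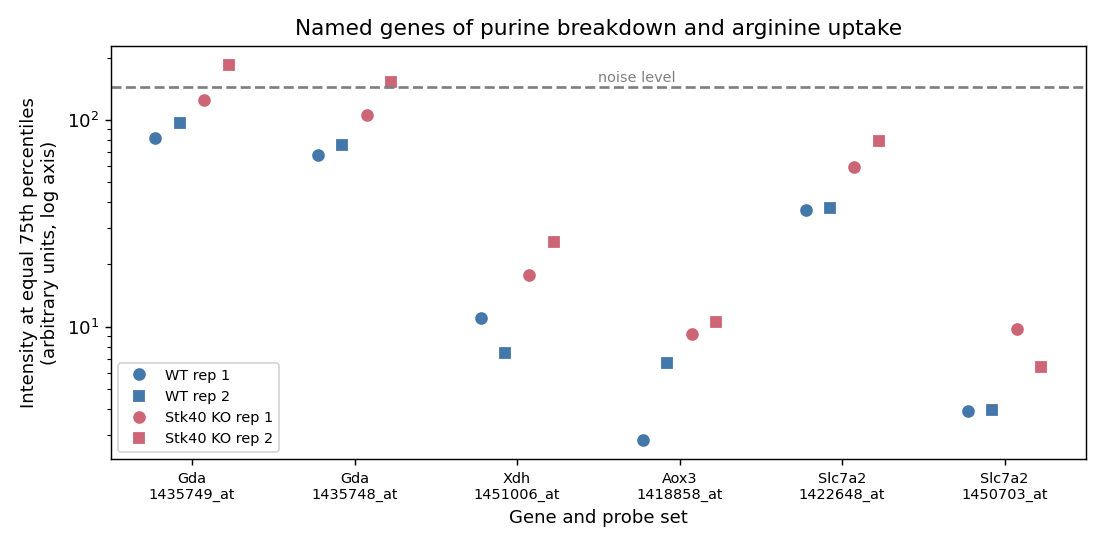
Intensity at equal 75th percentiles (arbitrary units, log axis) of each named probe set of Gda, Xdh, Aox3 and Slc7a2 on the 4 arrays (WT blue, Stk40 KO red, circles for replicate 1 and squares for replicate 2), with the noise level as a dashed line. Only Gda on Stk40 KO replicate 2 lies above the line, at 185 and 153.

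Of 13 listed genes of hepatocyte maturation, 7 are named in the table with the higher mean in Stk40 KO. Only 3 of them were bright enough to be tested, and limma called these 3 higher, as it did 1.21% of all tested probe sets. Since all 7 had been named for a 2-fold change, this follows from how they were named and says nothing about the list as a whole. Cyp3a11, a drug-metabolizing cytochrome P450, had 177 and 140 in WT and 602 and 546 in Stk40 KO, 3.63-fold higher. Mat1a, which makes S-adenosylmethionine in the liver, had 134 and 116 against 349 and 326, at least 2.35-fold higher. Cyp2d26, another cytochrome P450, had 255 and 219 against 402 and 481, 1.86-fold higher. Between the Stk40 KO arrays the 3 genes did not go one way, as replicate 2 was 0.907 times replicate 1 for Cyp3a11, 0.933 times for Mat1a and 1.198 times for Cyp2d26, and the summed intensity of the 7 named genes was 1537 on replicate 1 and 1607 on replicate 2. Apoc3, Cyp8b1, G6pc and Slc10a1 stayed under the noise level on all 4 arrays. The table names 0 of 9 hepatoblast markers, 0 of 10 erythroid markers and 0 of 7 macrophage markers, so the labelled tissue could not be checked against them.

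Because Cps1 is also made in the intestine, markers of intestinal epithelium were read beside it. Of 8 listed, 2 are named, and their summed intensity was 253 and 242 in WT against 113 and 102 in Stk40 KO. Nearly all of it is Fabp2, which binds fatty acids in enterocytes and had 247 and 229 in WT against 100 and 79.0 in Stk40 KO, at least 1.66-fold lower. Vil1, the villin of microvilli, had 6.08 and 13.4 against 12.4 and 23.1, under the noise level and overlapping, with the higher mean in Stk40 KO. The other listed markers have no value here, and the part of intestinal epithelium in the Cps1 values was not tested. limma called Fabp2 lower, but not when either WT array was left out.

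The named genes nearest in pattern to each member were sought by the root mean square difference over the 4 arrays, on log2 values raised to the noise level and centred on each probe set's mean. This likeness rests on the same 4 arrays that put the genes in the table, and only probe sets with a 2-fold change there have a name. A named gene is therefore likely to come nearest to a gene with a large difference. Over 65 named candidates, Cps1 was nearest to Lcn2 (0.59), Cp (0.66), Cyp3a11 (0.71), Fabp4 (0.75) and C730007P19Rik (0.83), with no probe set without a name closer than these. Lcn2 had 275 and 241 in WT and 931 and 1166 in Stk40 KO, 4.07-fold higher. Cp, the copper-carrying ferroxidase ceruloplasmin, had 351 and 297 against 1063 and 1330 by the probe set nearest to Cps1, 3.70-fold higher. Fabp4, a fatty acid-binding protein of adipocytes and macrophages, had 358 and 319 against 938 and 1274, 3.27-fold higher. C730007P19Rik, which RefSeq now lists as Sult2a2, a sulfotransferase, had 31.7 and 27.4 against 474 and 398. It was at least 3.04-fold higher against the noise level. Since Cps1 and C730007P19Rik were both under the noise level in WT, their rises have no order. Even the nearest gene to Cps1 differed from it by more than Uox did from any of its own 5 neighbours.

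Uox was nearest to Cap1 (0.06), Igfbp1 (0.10), Cp (0.10), Stfa2l1 (0.11) and Hp (0.11). Cap1, a regulator of actin filaments, had 239 and 257 in WT against 584 and 696 in Stk40 KO by the probe set nearest to Uox, 2.58-fold higher. Its other probe set had 80.7 and 85.7 in WT against 179 and 183 in Stk40 KO. That one was at least 1.26-fold higher and was not called by limma. Igfbp1, secreted by the liver to bind insulin-like growth factors, had 2152 and 1899 against 4019 and 5798, 2.42-fold higher. Cp entered here by a dimmer probe set, at 68.1 and 60.7 against 271 and 408, at least 2.36-fold higher. Hp, the hemoglobin-binding plasma protein haptoglobin, had 248 and 278 against 547 and 820, 2.60-fold higher, and Stfa2l1, a relative of the stefin A protease inhibitors, had 506 and 516 against 960 and 1465, 2.37-fold higher. The brighter probe set of Cap1 was the nearest of all 12318 other tested probe sets, which the naming makes no sign of a shared pattern. Between Cps1 and Uox the root mean square difference was 0.95, on values raised to the noise level.

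**Figure D5:**
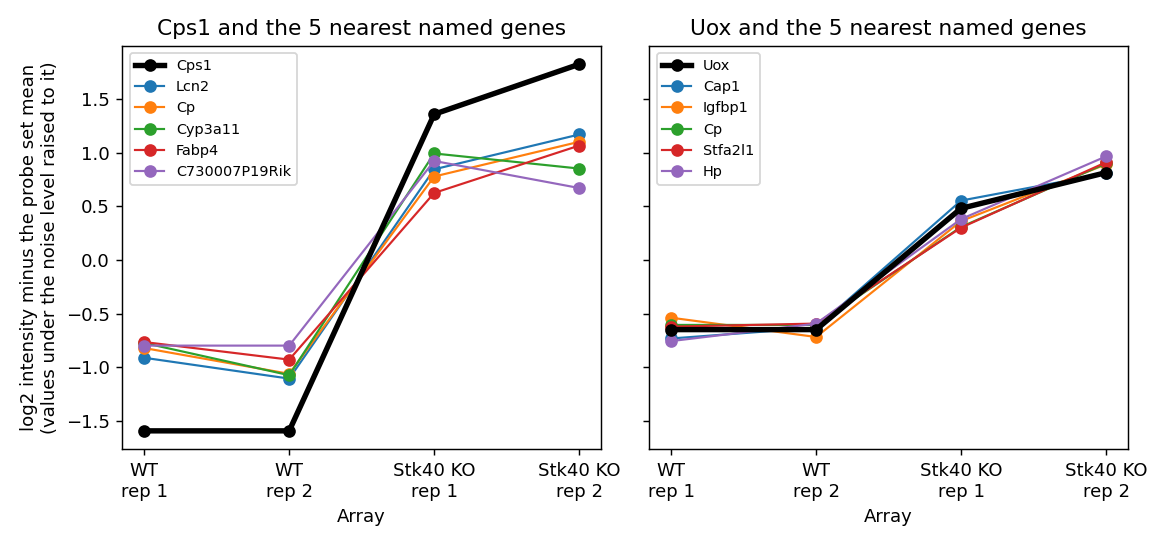
Centred log2 intensity on the 4 arrays for Cps1 (left, black) and Uox (right, black) with the 5 named genes nearest to each, at equal 75th percentiles with lower values set to the noise level. Lines join the values of 1 gene. Uox lies within the band of its neighbours, while Cps1 starts lower and ends higher than each of its own.

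In the annotation, neither neighbour of Cps1, Lancl1 or Erbb4, is named in the table. Of the neighbours of Uox, 4930503B20Rik is not named either. Dnase2b, a deoxyribonuclease gene whose annotated span overlaps that of Uox on the opposite strand, is named. It had 26.8 and 22.1 in WT and 48.7 and 47.1 in Stk40 KO, all under the noise level, so that no fold is given. Dnase2b was looked up for its place, after the values of Uox were known.

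The bases upstream of Uox are shown to give the letters that hepatocyte factors could read there. Of the 2 members, RefSeq's promoter table used here gave Uox. The sequence is that of RefSeq, build GRCm38.p6, the 250 bases before the annotated start at chr3:146596899-146597148 on the plus strand, with matches to the motifs searched in capitals.
Uox upstream: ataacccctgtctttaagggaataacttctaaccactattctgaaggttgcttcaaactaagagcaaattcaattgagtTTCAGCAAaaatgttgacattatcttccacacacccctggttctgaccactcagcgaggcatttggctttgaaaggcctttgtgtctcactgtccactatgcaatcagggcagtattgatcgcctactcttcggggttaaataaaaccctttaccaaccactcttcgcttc
The capitals mark 1 match to the C/EBP motif TTGCNNAA, read on the minus strand and beginning 171 bases before the start. Of 27025 mouse genes, 9.55% hold that motif on either strand in the same window. On both strands there was no match to the TATA box TATAAA (13.0% of genes), the CCAAT box CCAAT (34.5%), the FoxA motif TGTTTAC (3.09%), the HNF4 half-site CAAAGTC (3.80%) or the glucocorticoid receptor half-site AGAACA (16.2%). These motifs do not overlap each other in this window. A match describes the letters and does not show binding.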

How the data were processed

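Total RNA of E14.5 fetal livers was hybridized to 4 Affymetrix mouse genome arrays, 2 per genotype. The authors deposited 1 linear intensity for each probe set on each array. MAS5 is named in the submitters' processing notes, with no version, but the deposited values do not have the form of MAS5 signals. Between 21.0% and 23.2% of the probe sets other than controls are negative on an array. Of these values 99.9% are multiples of 1/11 within 0.001, as a mean over 11 probe pairs gives, and they had not been scaled between arrays. The authors' table of 2-fold changes, with 1467 probe sets, supplied all gene symbols (1418 with 1 symbol, 49 with several, not named). All 1467 matched the intensities of the value table, with values under 0.1 raised to 0.1. Its columns of mean intensities and folds hold the authors' own comparison and were not used.

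Arrays were scaled to equal 75th percentiles of positive values, values under the noise level were raised to it, and limma (3.58.1, R 4.3.3; lmFit, eBayes with a trend) was run on log2 intensities of the 12319 probe sets above that level on at least 2 arrays, with Benjamini-Hochberg adjustment. Its prior degrees of freedom were 6.31. The scripts were tested on simulated data. The 2 arrays per genotype limit the precision. Alternatives covered scaling, floor, filter, variance trend, replicate block and left-out arrays. The methods' t-test, which the paper does not name for the arrays, was a further one. Named genes were Stk40, Cps1 and Uox, genes of the nitrogen and purine lists that are in the authors' table, up to 4 tested members of other lists, and 5 nearest genes for each member. The members and lists were chosen with earlier results of these data known. Of the table's 1345 symbols 1197 were found in RefSeq's table for GRCm38.p6, used for names and neighbours. RefSeq's promoter table held 1 of the 2 members. The values of 1 listed gene are not reported here.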

Additional observations from a re-analysis of the deposited data

How the results depend on the processing

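The lower bounds of Cps1 and Uox moved by less than the spread between array pairs under every scaling. They were 9.22 and 2.47 with the replicate block and 9.11 and 2.46 with geometric means. Each left-out array gave 7.98 to 10.4 and 2.26 to 2.69. Apart from the scalings, these settings could hardly have moved the bounds beyond that spread. Both WT arrays are held at the noise level, and the spread comes from the same 2 Stk40 KO arrays. The rule of the methods, which divides by measured WT means under the noise level, gave 13.5 and 3.91. The counts over all probe sets depended on the processing more. Against 149 higher and 83 lower, limma called 284 and 11 on the intensities as deposited, 238 and 160 with the floor at the median size of the negative values, 215 and 201 among probe sets that exceeded the noise level on each of the 4 arrays, and 105 and 55 without the trend. With quantile normalization it called 181 and 58. The methods' t-test, which the paper does not name for the arrays, was run here on the same floored log2 values. It called 0 and 0 after adjustment, 0 listed genes among them in either direction. With 2 arrays per genotype it could hardly call any after adjustment. At an unadjusted p under 0.05 it called 459 and 1002 (limma 814 and 1383). With the replicate block limma called 778 and 1140. The replicate numbers are shared only as numbers, and the WT and Stk40 KO differences between replicates correlated at 0.24 across probe sets with 2 pairs. Leaving out an array gave 98 to 438 higher and 115 to 293 lower, with 98 higher without Stk40 KO replicate 2, 241 and 136 without Stk40 KO replicate 1 and 438 and 293 without WT replicate 2. Of listed genes other than the members, 7 were called higher (6 to 7 with an array left out) and 1, Fabp2, lower (0 to 1 with an array left out, and 0 with that stricter filter). A fit with no filter could not be made, since 71.2% of probe sets have no spread at the floor. The scaling to the control probe sets was chosen after seeing the data. Signal over background limits these results: WT levels of Cps1 and Uox are known only to lie under the noise level.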
